A study of Mus musculus with 6 samples.

Results

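The genes described here are 9 named genes of the B-cell receptor and the B lineage: *Cd79a*, *Cd79b*, *Ms4a1*, *Pax5*, *Igkc*, *Ighm*, *Fcer2a*, *Cd22* and *Blk*. They were chosen by symbol out of 25701 genes of the count table, with earlier results of the same comparison known, so their differences between the groups are given as a description. No p value is given for any of the 9, and calls among them by tests over all genes are not read as evidence. All 9 were listed, and 8 had enough counts to be kept for testing, as had 13485 genes in all. The samples were CD11b+ cells, a selection that enriches monocytes, macrophages and neutrophils, taken with magnetic beads from digested subcutaneous flank tumors and measured by bulk RNA-seq of poly-A RNA. B cells were therefore not the cells selected for, and 6 of the 9 genes had at most 157 counts in any library, whereas *Ighm* had 635 to 2364.

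Mice with and without induced deletion of MCT2, the pyruvate and lactate transporter encoded by *Slc16a7*, were compared, with 3 samples in each group. All mice were of C57BL/6 background and carried loxP-flanked MCT2 alleles together with a tamoxifen-inducible Cre transgene, whose promoter the methods do not name. MCT2 KO mice received daily tamoxifen (180 µg per g of body weight) for 5 days from 8 weeks of age, and MCT2 CO mice received vehicle, so MCT2 deletion and tamoxifen exposure cannot be told apart. Both groups then received 100000 TC1 cells, a mouse lung epithelial tumor line, after 2 days, and tumors were taken at 24 days. The deletion was not restricted to CD11b+ cells, and the sample records give lung as the tissue and macrophages as the cell type, whereas the methods describe flank tumors. Total counts ranged from 24863611 to 31713704 per sample. *Slc16a7* itself was at 12.8 ± 2.84 CPM (read counts scaled to library size by the TMM method, mean ± SD, n = 3) in MCT2 CO and 6.18 ± 1.78 in MCT2 KO, with every KO sample below every CO sample (log2 fold change -1.05, standard error 0.24, adjusted p = 0.370 by edgeR's quasi-likelihood test and 0.00862 by DESeq2 without the filter on low counts). In a principal component analysis of the 500 most variable genes, the groups did not overlap on the first component (39.7% of the variance). The KO samples lay at 8.53 to 11.8 and CO replicates 1 and 2 at -3.13 and -3.54. MCT2 CO replicate 3 stood apart at -22.7. On the second component (33.2%) the groups overlapped. There MCT2 KO replicate 2 stood apart, at -22.5 against -3.06 to 9.26 in the other samples.

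The B-cell receptor is a membrane immunoglobulin, built of heavy chains and kappa or lambda light chains, that is held in a complex with the signaling chains CD79A and CD79B. Antigen binding leads to phosphorylation of the CD79 tails by Src-family kinases such as LYN and BLK, and coreceptors including CD22 dampen the signal. PAX5 is the transcription factor that maintains B-lineage identity, and CD20 (*Ms4a1*) and CD23 (*Fcer2a*) are surface proteins of mature B cells.

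RefSeq (GRCm38.p6) start sites were matched for 4 of the 9 genes, *Cd79a*, *Pax5*, *Fcer2a* and *Cd22*, and the bases before them were read. The bases upstream of *Cd79a* and *Fcer2a* are shown because these genes had similar profiles over the samples, and each stops before the first annotated transcript base. Both read 5′ to 3′ on the gene's strand. Capitals mark an E-box (CAGGTG, a motif bound by E proteins) in *Cd79a* and the reverse complement of an Ets core (GGAAGT, bound by Ets factors) in *Fcer2a*.
*Cd79a*, chr7:24897247-24897380, plus strand: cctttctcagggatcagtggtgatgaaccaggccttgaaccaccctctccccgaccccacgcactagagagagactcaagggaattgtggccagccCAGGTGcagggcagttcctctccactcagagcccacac
*Fcer2a*, chr8:3694176-3694424, minus strand: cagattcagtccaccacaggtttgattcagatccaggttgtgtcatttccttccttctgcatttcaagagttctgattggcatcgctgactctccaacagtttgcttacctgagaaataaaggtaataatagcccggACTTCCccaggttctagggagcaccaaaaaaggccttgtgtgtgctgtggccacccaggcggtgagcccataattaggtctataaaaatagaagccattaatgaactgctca

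The motifs searched for on both strands, in the 250 bases before each start site, were the octamer ATGCAAAT, the EBF1 core (TCCC and GGGA parted by any 2 bases), the Ets core GGAAGT and the E-box CAGGTG. Among 32851 such windows, 1.6% held the octamer, 0.779% the EBF1 core, 19.7% the Ets core and 17.2% the E-box. *Cd79a* held an E-box 154 bases and an Ets core 54 bases before its start site, and *Fcer2a* an Ets core 113 bases before its first start site and E-boxes 244 and 99 bases before its second. *Cd22* held an EBF1 core 49 bases and an E-box 245 bases before its start site, and *Pax5* held none of the 4 motifs. The start site of *Cd22* and the second of *Fcer2a* lie inside the gene spans of GENCODE M21, and so do their matches, as does the Ets core of *Cd79a*. A match is a description of the letters only, and the E-box and the Ets core occur in many promoters.

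In 5 of the 9 genes, *Cd79a*, *Igkc*, *Ms4a1*, *Blk* and *Fcer2a*, all 3 KO samples lay below all 3 CO samples. Of all genes tested, 8.77% had this pattern, as did 4 of the 8 tested here, since *Fcer2a* was not tested. Nothing is read from the count of 5, since the genes were chosen with this comparison known. In the other 4 genes, *Pax5*, *Cd79b*, *Ighm* and *Cd22*, the groups overlapped. The receptor's own components thus fell on both sides: the kappa constant gene and *Cd79a* were without overlap, and the mu constant gene and *Cd79b* overlapped. Because each sample is a bulk preparation, fewer B cells and less RNA per B cell cannot be told apart.

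*Cd79a* (ENSMUSG00000003379, chromosome 7 of GRCm38, 24897381 to 24902197) encodes the Igα chain that carries the receptor signal. In the order of replicates 1, 2 and 3, used throughout, its counts were 33, 46 and 91 in CO and 10, 19 and 13 in KO. This came to 2.1 ± 1.20 CPM (SD, n = 3) in CO and 0.508 ± 0.0828 in KO, a log2 fold change of -2.02 (standard error 0.45). The 3 KO samples lay close together, within 1.39-fold, and the CO samples spread over 3.11-fold with replicate 3 the highest.

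*Cd79b* (ENSMUSG00000040592, chromosome 11, 106311341 to 106314762) encodes Igβ, the partner of Igα in the receptor complex. Its counts were 309, 190 and 142 in CO and 260, 40 and 224 in KO. The levels were 7.65 ± 2.5 CPM in CO and 7.04 ± 5.12 in KO, and the log2 fold change of -0.14 was smaller than its standard error of 0.63. KO replicate 2 was the lowest sample, while KO replicate 1 was the highest of all 6. Without KO replicate 2 the log2 fold change was 0.38 and without CO replicate 1 it was 0.14, so that the sign changed with either sample left out. The partner chains thus had unlike profiles: the order of the CO samples was opposite in *Cd79a* and *Cd79b*, and *Cd79a* ran from 3.85 to 64.1 counts per 100 counts of *Cd79b* with the groups overlapping.

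**Figure D1:**
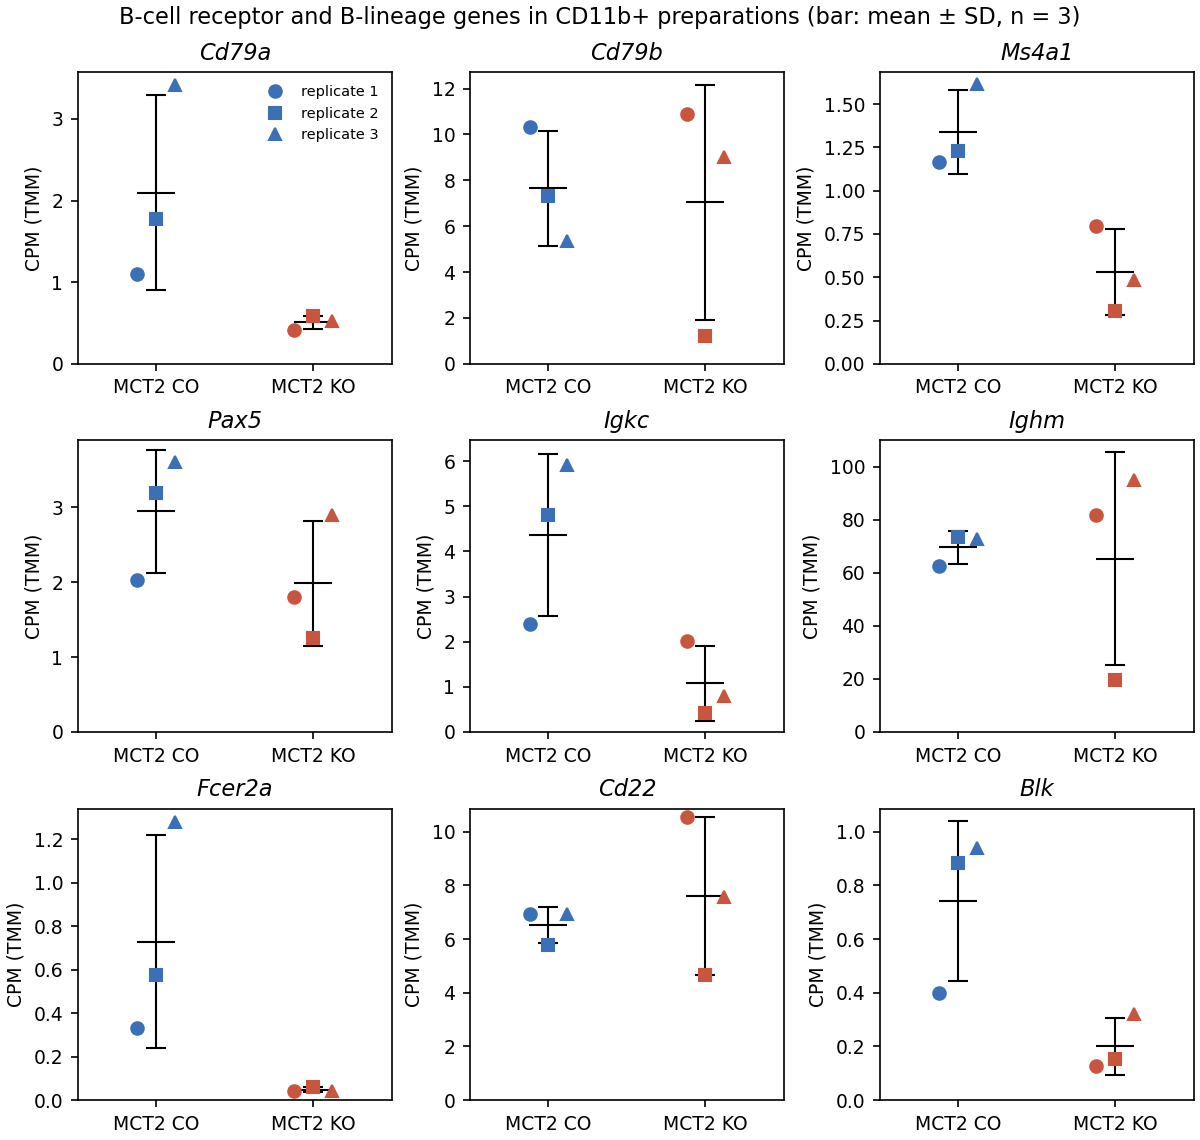
Level of each of the 9 genes in CPM after TMM normalization (y axis, from 0, a separate scale per gene) in 3 MCT2 CO (blue) and 3 MCT2 KO (red) samples; point shape gives the replicate, and bars the mean ± SD. In *Cd79a*, *Ms4a1*, *Igkc*, *Fcer2a* and *Blk* the red points all lie below the blue ones, and in *Cd79b* and *Ighm* KO replicate 2 lies far below the other 5 samples.

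*Ighm* (ENSMUSG00000076617, chromosome 12, 113418558 to 113422730), the constant gene of the mu heavy chain, had the most counts of the 9 genes in every sample. Counts were 1873, 1917 and 1931 in CO and 1949, 635 and 2364 in KO. The CO samples agreed within 1.18-fold, whereas the KO samples spread over 4.87-fold, with replicate 3 the highest and replicate 2 the lowest of all 6 samples. Mean levels were 69.6 ± 6.21 CPM in CO and 65.4 ± 40.3 in KO, with a log2 fold change of -0.09 (standard error 0.47) that became 0.35 without KO replicate 2.

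*Igkc* (ENSMUSG00000076609, chromosome 6, 70726435 to 70726966) is the constant gene of the kappa light chain, which pairs with the heavy chain. It had 72, 125 and 157 counts in CO and 48, 14 and 20 in KO. Its level was 4.37 ± 1.79 CPM in CO and 1.08 ± 0.827 in KO, a log2 fold change of -2.04 (standard error 0.55). KO replicate 1, at 2.01 CPM, lay just below the lowest CO sample at 2.40 CPM, and the other KO samples were at 0.430 and 0.803 CPM. Leaving out any single sample gave values from -2.83 to -1.63.

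The ratio of light to heavy chain RNA within a library does not depend on library size. Per 1000 counts of *Ighm* there were 38.4, 65.2 and 81.3 counts of *Igkc* in the CO samples and 24.6, 22.0 and 8.46 in the KO samples. All KO ratios were below all CO ratios, with a log2 difference of -1.82 (-2.13 to -1.34 with each sample left out). KO replicate 2, which was low in both genes, had a ratio near that of KO replicate 1. *Ighm* made up 71.4 to 74.3% of the summed counts of the 9 genes in CO and 69.2 to 81.5% in KO, and *Igkc* 2.76 to 5.81% in CO and 0.689 to 1.86% in KO.

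*Ms4a1* (ENSMUSG00000024673, chromosome 19, 11249675 to 11266241) encodes CD20, a surface protein of B cells from the pre-B stage onward. There were 35, 32 and 43 counts in CO and 19, 10 and 12 in KO. Levels were 1.34 ± 0.244 CPM in CO and 0.528 ± 0.248 in KO, a log2 fold change of -1.36 (standard error 0.37). The gap between the lowest CO sample, at 1.17 CPM, and the highest KO sample, at 0.796 CPM, was larger than either SD.

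*Fcer2a* (ENSMUSG00000005540, chromosome 8, 3681737 to 3694175) encodes CD23, the low-affinity IgE receptor of mature follicular and activated B cells. It had 10, 15 and 34 counts in CO and 1, 2 and 1 in KO. The gene did not pass the filter on low counts, because only 2 CO samples and 0 KO samples reached the 0.384 CPM that the filter asks of 3 samples, and it has no fitted fold change. Summed over the replicates, 59 counts in CO stood against 4 in KO, a ratio of CO to KO of 14.5 after scaling by library size, with an exact 95% interval of 5.38 to 55.1. That interval covers counting error only and not the spread between samples. The lowest CO sample, at 0.333 CPM, was above the highest KO sample at 0.0614 CPM.

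*Blk* (ENSMUSG00000014453, chromosome 14, 63372836 to 63417037) encodes the Src-family kinase named after B lymphocytes. Counts were 12, 23 and 25 in CO and 3, 5 and 8 in KO. It passed the filter through the CO samples alone, and no KO sample reached the filter's level, so a difference was built into its being tested. The levels were 0.741 ± 0.297 CPM in CO and 0.200 ± 0.106 in KO, with a log2 fold change of -1.87 (standard error 0.51). CO replicate 1, at 0.400 CPM, was nearest to KO replicate 3, at 0.321 CPM.

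*Pax5* (ENSMUSG00000014030, chromosome 4, 44524757 to 44710487) encodes the B-lineage commitment factor. It had 61, 83 and 96 counts in CO and 43, 41 and 72 in KO. Levels were 2.94 ± 0.816 CPM in CO and 1.98 ± 0.832 in KO, so that the log2 fold change was -0.58 (standard error 0.35), or -0.32 without KO replicate 2 and -0.94 without KO replicate 3. The groups overlapped through KO replicate 3, which at 2.89 CPM lay above CO replicate 1 at 2.03 CPM. Exons make up 4.77% of the 185731 bases of the gene's span, and genes on the opposite strand cover 2.09% of that span.

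*Cd22* (ENSMUSG00000030577, chromosome 7, 30865402 to 30880342) encodes a sialic acid-binding inhibitory receptor. Its counts were 208, 150 and 184 in CO and 252, 152 and 188 in KO. It was the one gene of the 9 with a higher mean in KO, at 6.54 ± 0.670 CPM in CO and 7.59 ± 2.95 in KO, and its log2 fold change of 0.21 was smaller than its standard error of 0.28. That value was -0.10 without KO replicate 1 and 0.47 without KO replicate 2. Per count of *Cd79a* there were 6.30, 3.26 and 2.02 counts of *Cd22* in CO and 25.2, 8.0 and 14.5 in KO, with all KO ratios above all CO ratios.

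**Figure D2:**
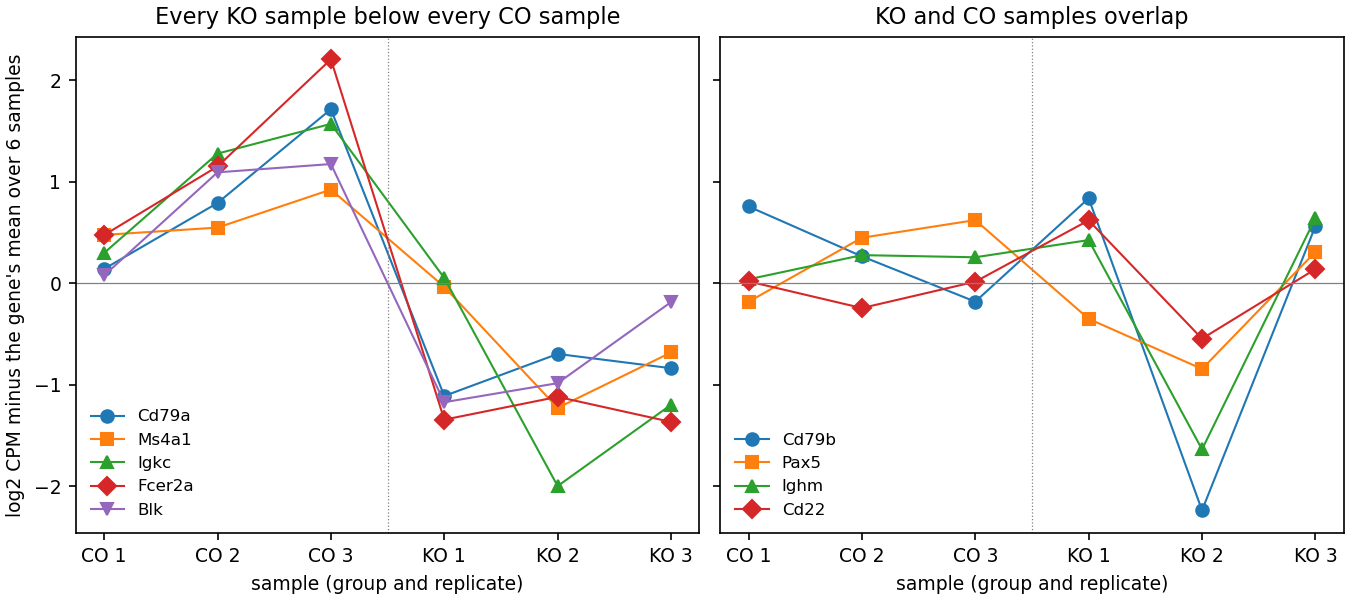
Profiles of the 9 genes over the 6 samples, as log2 CPM (prior count 2) minus the gene's mean over all samples (y axis); lines join the values of 1 gene, and the samples of a group (x axis) have no order. Left, the 5 genes whose groups do not overlap; right, the 4 whose groups overlap, in all of which KO replicate 2 is the lowest sample.

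The genes differed in which samples set their range. MCT2 CO replicate 3 was the highest sample in 6 genes, *Cd79a*, *Ms4a1*, *Pax5*, *Igkc*, *Fcer2a* and *Blk*, and KO replicate 2 was the lowest in 6, *Cd79b*, *Ms4a1*, *Pax5*, *Igkc*, *Ighm* and *Cd22*. By the root-mean-square difference between centred log2 profiles over the 6 samples, the closest pairs were *Cd79a* and *Blk* (0.387), *Cd79a* and *Fcer2a* (0.408), and *Cd79b* and *Ighm* (0.455). The farthest pair was *Cd79b* and *Fcer2a* (1.65), and *Cd79a* and *Cd79b* stood at 1.44. These distances rest on 6 libraries and on counts as low as 1.

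With levels divided by exon length, the order in MCT2 CO was *Ighm* (36.9 ± 3.29 CPM per kb of exon), *Igkc* (8.21 ± 3.37), *Cd79b* (5.35 ± 1.75), *Cd79a* (1.44 ± 0.820), *Cd22* (1.30 ± 0.133), *Pax5* (0.333 ± 0.0922), *Blk* (0.275 ± 0.110), *Fcer2a* (0.236 ± 0.159) and *Ms4a1* (0.216 ± 0.0394). Intervals of mean ± SD overlapped between *Igkc* and *Cd79b*, between *Cd79a* and *Cd22*, and among the last 4. In MCT2 KO the levels were 34.7 ± 21.4 for *Ighm*, 4.92 ± 3.58 for *Cd79b*, 2.03 ± 1.55 for *Igkc* and 1.51 ± 0.585 for *Cd22*, of which the last 3 overlapped with their neighbors. *Cd79a* (0.349 ± 0.0568), *Pax5* (0.224 ± 0.0939), *Ms4a1* (0.0854 ± 0.0401), *Blk* (0.0742 ± 0.0392) and *Fcer2a* (0.0155 ± 0.00381) followed, with overlap between *Cd79a* and *Pax5* and between *Ms4a1* and *Blk*. On this scale *Cd79a* was thus near *Cd22* in CO and below it, beyond the SDs, in KO. These orders rest on exon length, but the gene lengths listed with the counts are whole gene spans. Reads may therefore have been counted over introns as well, which was not tested. Exons make up 4.77% of the span in *Pax5*, 6.10% in *Blk* and 100% in *Igkc*. The order between such genes is uncertain, whereas the exon shares of *Cd79a* (30.2%) and *Cd22* (33.7%) are alike.

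A gene was called where its adjusted p (Benjamini-Hochberg) was no higher than 0.05 and its log2 fold change was 0.58 or more in size. Across all genes tested, edgeR's quasi-likelihood test called 0%, and 9.37% of genes had an unadjusted p under 0.05, made up of 5.6% lower and 3.77% higher in KO. None of the 9 genes was called, nor was any in edgeR without the filter, which called 0.0108% of genes. DESeq2 called 0.586% of the same genes, 0.334% in the lower direction, and among them *Cd79a* and *Igkc*. Run without the filter, DESeq2 called 0.705%, 0.386% lower, and *Fcer2a* was added to those 2 genes. The log2 fold changes of the 8 genes that passed the filter had a median of -0.97, beside 0.00037 over all 13485 genes. Of all genes tested, 0.986% had a log2 fold change of -1 or lower, as did *Cd79a*, *Igkc*, *Blk* and *Ms4a1*. *Blk*, which passed the filter through the CO samples alone, enters both the median and this list. These values describe genes picked for this comparison and are not evidence for it.

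Immunoglobulin variable (V) segments are rearranged in developing B cells and are spliced to the constant region in the RNA. Different clones can use the same segment, so the number of segments is not a number of clones. The table lists 218 V segments by symbol, 115 of the heavy chain, 100 of kappa and 3 of lambda. Each was low, and reads of near-identical segments may have been split or lost, so single segments are uncertain and sums are given. Summed over all segments, the CO samples had 145, 168 and 254 counts and the KO samples 90, 35 and 24. In CPM this was 4.83, 6.46 and 9.55 in CO and 3.77, 1.07 and 0.964 in KO, so that all KO samples were below all CO samples. KO replicate 1 was nearest to the CO samples, as it was for *Igkc*.

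The number of different V segments with at least 1 count was 41, 65 and 74 in CO and 42, 18 and 14 in KO, which overlap by KO replicate 1. Over the 3 libraries of a group, 115 segments were counted in CO and 57 in KO, and 51 of these were shared, which is 44.3% of the CO and 89.5% of the KO segments. In all 3 libraries of the group there were 9 segments in CO and 1 in KO. The number of segments seen depends on the number of counts, 567 in CO and 149 in KO. For an equal draw of 24 counts, the total of the shallowest library, the expected number of segments was 15.7, 18.8 and 18.9 in CO and 18.8, 15.03 and 14 in KO, with overlapping groups. At equal counts the libraries thus lay between 14 and 18.9 segments.

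Single segments differed from library to library. The lambda segment *Iglv1* had the most counts, with 10, 10 and 17 in CO and 2, 2 and 0 in KO. *Igkv5-39* had 0, 11 and 17 counts in CO and 0 in each KO library, and *Ighv1-26* had 0, 13 and 9 in CO and 3, 2 and 3 in KO. *Igkv12-38* had 17 of the 145 V counts of CO replicate 1 and 1 count in the other 5 libraries. *Igkv12-46* had 0, 5 and 2 counts in CO and 0, 0 and 6 in KO, the 6 being of 24 V counts in KO replicate 3. The leading segment held 5.56 to 14.3% of the V counts in the other 5 libraries.

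Kappa V segments followed *Igkc*: per 100 counts of *Igkc* there were 80.6, 67.2 and 88.5 kappa V counts in CO and 66.7, 136 and 70.0 in KO, with overlapping groups. Heavy V segments did not follow *Ighm* in the same way. Per 100 counts of *Ighm* there were 4.06, 3.86 and 4.82 heavy V counts in CO and 2.77, 1.89 and 0.423 in KO, with all KO ratios below all CO ratios. KO replicate 3 had the most *Ighm* counts of all libraries, 2364, and the fewest heavy V counts, 10. The median exon length of the segments was 353 bases for heavy and 362 for kappa, so V length does not differ much between the chains. The constant genes do differ, with 1886 exon bases in *Ighm* and 532 in *Igkc*, so the level of the ratio cannot be compared between chains. Heavy V segments also join other heavy constant genes, whose counts are not in this ratio. With those genes added to *Ighm*, heavy constant counts were 2061, 2176 and 2236 in CO and 2298, 706 and 2717 in KO.

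**Figure D3:**
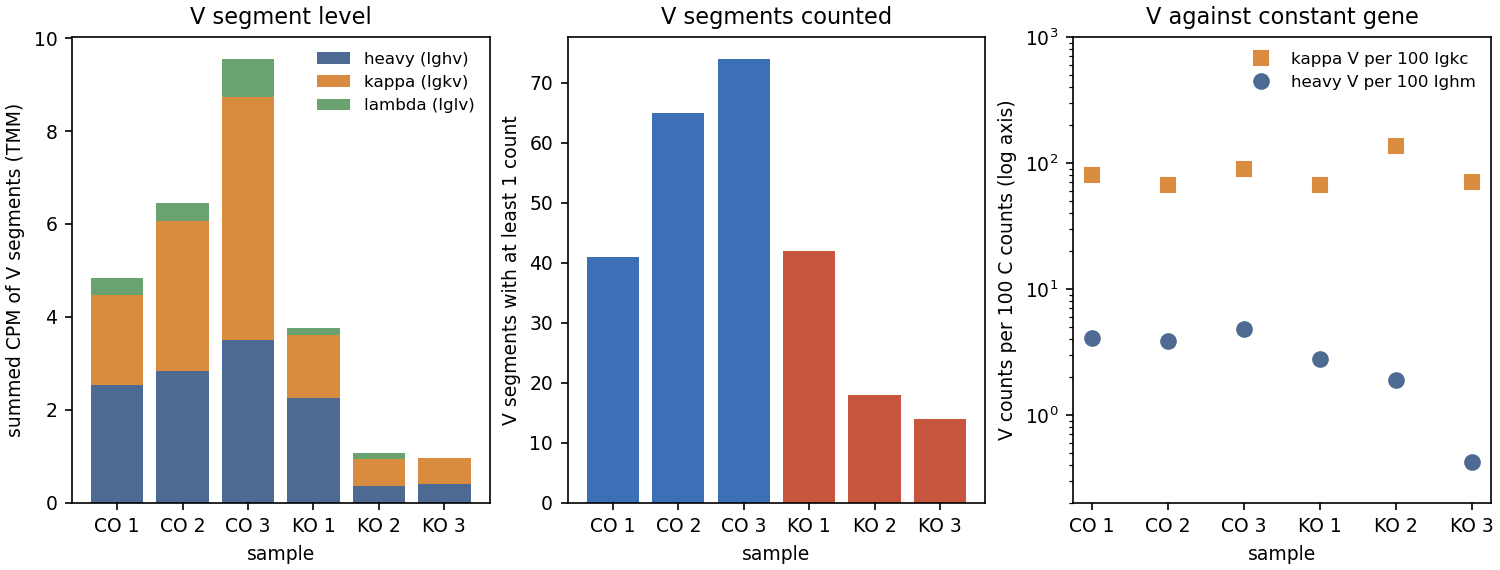
Immunoglobulin V segments in each of the 6 samples (x axes): left, summed CPM after TMM normalization by chain; middle, number of segments with at least 1 count; right, kappa V counts per 100 *Igkc* counts and heavy V counts per 100 *Ighm* counts on a log axis. Kappa V per *Igkc* overlaps between the groups, from 66.7 to 136, whereas heavy V per *Ighm* is 3.86 to 4.82 in CO and 0.423 to 2.77 in KO.

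The other immunoglobulin constant genes were 10 in number, of which 3 passed the filter, and 0 were called by edgeR or DESeq2. *Ighd*, the delta heavy chain of mature naive B cells, was at 0.567, 1.31 and 1.81 CPM in CO and 0.419, 0.0921 and 0.883 in KO (log2 fold change -1.44, adjusted p = 0.558, edgeR). *Igha*, the IgA heavy chain, was at 2.30, 3.77 and 8.27 CPM in CO and 3.98, 1.07 and 0.442 in KO (log2 fold change -1.40, adjusted p = 0.588). *Ighg2b*, the IgG2b heavy chain, went the other way, at 2.83, 3.77 and 1.13 CPM in CO and 9.77, 0.951 and 12.2 in KO (log2 fold change 1.55, adjusted p = 0.582). Like *Ighm*, *Ighg2b* was highest in KO replicates 1 and 3 and lowest in KO replicate 2. The lambda constant genes *Iglc1*, *Iglc2* and *Iglc3* had 0 to 17 counts per library and were not tested.

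Among 13 further B-cell surface genes, 10 passed the filter, and 0 were called by edgeR. The median log2 fold change was -0.21, and 6 were below 0 (49.9% of all genes tested were). An unadjusted p under 0.05 was seen in 2 (9.37% of all genes tested had one), both lower in KO. These were *Ly6d*, at 0.918 ± 0.425 CPM in CO and 0.346 ± 0.0694 in KO (log2 fold change -1.39, adjusted p = 0.442, edgeR), and *Siglecg*, a Siglec that restrains receptor signaling, at 1.39 ± 0.670 and 0.674 ± 0.194 CPM (log2 fold change -1.05, adjusted p = 0.505). In both, every KO sample was below every CO sample.

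The surface list was not uniform. *Fcrl5*, an Fc receptor-like protein, was at 35.6, 21.3 and 9.44 CPM in CO and 51.2, 3.62 and 72.0 in KO, and *Cd72*, an inhibitory C-type lectin, at 476, 449 and 319 CPM in CO and 628, 186 and 582 in KO. In both genes the groups overlapped and the order of samples was that of *Cd79b* within CO, with KO replicate 2 the lowest. *Tnfrsf13c*, the BAFF receptor, had 11, 19 and 16 counts in CO and 5, 9 and 6 in KO, below the filter and without overlap.

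Of 11 B-lineage transcription factors, 10 passed the filter, 6 had a log2 fold change below 0, and the median was -0.06. The 2 with an unadjusted p under 0.05 were *Bcl11a*, at 1.76 ± 0.666 CPM in CO and 0.788 ± 0.249 in KO (log2 fold change -1.17, adjusted p = 0.444, edgeR), and *Spib*, at 1.67 ± 0.677 and 0.924 ± 0.163 CPM (log2 fold change -0.84, adjusted p = 0.533). Their groups overlapped. *Ebf1*, which acts with PAX5 early in the lineage and is also expressed by stromal cells, was at 9.15 ± 0.625 CPM in CO and 8.07 ± 0.987 in KO (log2 fold change -0.18, adjusted p = 0.718). *Pou2af1*, the B-cell coactivator of octamer factors, had 5, 10 and 9 counts in CO and 3, 2 and 4 in KO and was not tested.

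All 23 genes of the receptor's downstream signaling passed the filter. Their log2 fold changes lay between -0.40 and 0.40, with a median of 0.07, 9 below 0 and 14 above. An unadjusted p under 0.05 was seen in 0 of them, beside 9.37% of all genes tested. *Lyn*, at 388 ± 74.3 CPM in CO and 414 ± 104 in KO, *Syk*, at 250 ± 28.7 and 265 ± 66.3, and *Btk*, at 32.9 ± 4.02 and 38.8 ± 7.01, are kinases that myeloid cells also express. *Blnk*, the adaptor that links SYK to BTK, was at 52.3 ± 6.76 CPM in CO and 49.9 ± 16.9 in KO. *Bank1*, a B-cell scaffold protein, had the lowest log2 fold change of the list, -0.40 (standard error 0.61), and *Prkcb* the highest, at 0.40 (standard error 0.19).

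Of 10 plasma-cell genes, 8 passed the filter and 1 had an unadjusted p under 0.05, as 9.37% of all genes tested had. This was *Jchain*, which joins IgA and IgM into polymers, at 0.500, 0.961 and 1.92 CPM in CO and 0.671, 0.153 and 0.201 in KO (log2 fold change -1.76, adjusted p = 0.497, edgeR). *Xbp1* and *Prdm1*, the regulators of secretory differentiation, were at 117 ± 15.7 and 44.9 ± 4.83 CPM in CO and at 112 ± 16.1 and 50.8 ± 9.78 CPM in KO. *Mzb1* had 0 counts, as did other genes that lie inside the span of another listed gene. Of 6 progenitor genes, 4 were matched, of which *Dntt* had 4 to 20 counts per library and 3 were at 0. Of these 3, *Rag1* and *Rag2* lie wholly inside the span of *Iftap*, so their 0 counts do not show absence. Of 4 germinal-center genes, 2 passed the filter with log2 fold changes of -0.24 and -0.09. Over all these other B-lineage lists, 56 genes were tested, with 30 log2 fold changes below 0 and 26 above and a median of -0.01. Of the 56, 5 had an unadjusted p under 0.05, all 5 lower in KO, beside 9.37% of all genes tested (5.6% lower). Nothing is read from this count. KO samples were wholly below CO samples in 3.57% of the 56, against 8.77% of all genes tested. The 56 include the 23 signaling genes, several of which myeloid cells also express, so they do not stand for B cells alone. Genes that were not tested are missing from these values. Among them, *Tnfrsf13c*, *Pou2af1* and *Iglc2* had every KO sample below every CO sample, and *Iglc1*, *Iglc3* and *Ighg3* overlapped.

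**Figure D4:**
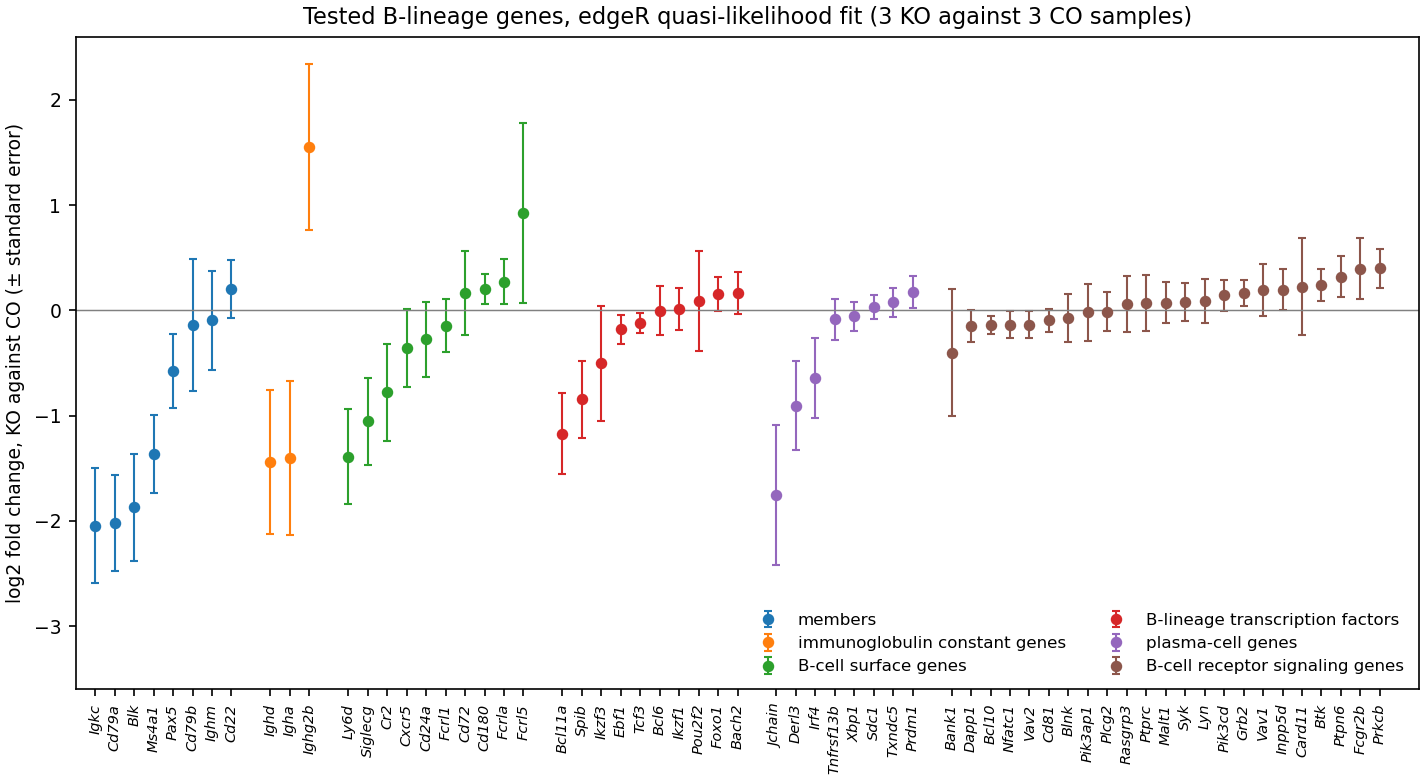
Log2 fold change of MCT2 KO against MCT2 CO (y axis, 3 samples each, ± standard error from the edgeR fit) for each tested gene of 6 lists (x axis, by color), sorted within the list. The 9 genes described here ("members", of which 8 were tested) range from -2.04 to 0.21, whereas the 23 receptor signaling genes at the right lie between -0.40 and 0.40.

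Markers of other cells were counted in the same libraries. The 9 B-lineage genes summed to 87.1 to 102 CPM in CO and 28.2 to 117 in KO, against 5691 to 7606 CPM in CO and 6812 to 10775 in KO for 12 macrophage markers. All 11 macrophage markers tested had a log2 fold change above 0 (median 0.27), and 0 were called by edgeR or DESeq2. Of all genes tested, 49.9% had a log2 fold change below 0. *Itgam*, which encodes CD11b itself, had 1 count in all, and 99.9% of its span lies within that of *Gm49368*, so it could not serve as a check of the selection. The 18 T-cell markers summed to 67.3, 107 and 82.1 CPM in CO and to 88.2, 24.7 and 145 in KO, and KO replicate 2 was thus the lowest in them too. None of the 18 had groups without overlap, a pattern of 15.8% of all genes tested, their median log2 fold change was -0.01, and 9 were below 0.

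The 10 NK-cell markers summed to 59.9 to 98.9 CPM in CO and 69.8 to 128 in KO, with 4 genes wholly below in KO, as 8.77% of all genes tested were. Among these was *Gzma* (log2 fold change -1.09, adjusted p = 0.370 by edgeR and 0.00682 by DESeq2 without the filter), whereas *Prf1* had a log2 fold change of 1.12 (adjusted p = 0.430 by edgeR and 0.0489 by DESeq2 without the filter). The 7 plasmacytoid dendritic-cell markers summed to 335 to 405 CPM in CO and 295 to 341 in KO. Most of this sum was *Tcf4* (mean 258 CPM in CO) and *Runx2* (94.6), against 3.48 for *Siglech*, so it mainly follows *Tcf4* and *Runx2*. All 6 markers tested had a log2 fold change below 0, as 49.9% of all genes tested had, with a median of -0.31. *Cox6a2* was at 0 and lies wholly inside the span of *Itgad*. The 7 dendritic-cell markers summed to 350 to 729 CPM in CO and 461 to 970 in KO. In CO, *Itgax* alone made up 515 of the mean sum of 559 CPM. The 9 fibroblast and endothelial markers summed to 2103 to 3378 CPM in CO and 1808 to 1900 in KO, with the highest value in CO replicate 3, which was also highest in 6 of the B-lineage genes. The 10 neutrophil markers summed to 79.7 to 101 CPM in CO and 61.7 to 179 in KO, with 4 of the 6 tested wholly above in KO, as 7.07% of all genes were. In CO, *Csf3r* alone made up 86.0 of the mean sum of 93.2 CPM. The 4 epithelial markers summed to 13.9 to 20.9 CPM in CO and 18.5 to 33.4 in KO, and 3 hemoglobin genes to 0.790 to 1.54 and 0.522 to 1.59. The part of these cells in the values of the B-lineage genes was not tested.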

How the data were processed

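CD11b+ cells of tumors were sequenced in 3 MCT2 CO and 3 MCT2 KO samples. The authors deposited raw read counts per gene, unnormalized and not pooled, made with STAR 2.7.11b (GRCm38) and featureCounts 2.1.1 after FastQC 0.12.0 and MultiQC 1.28; the annotation, feature type and strand setting of the counting are not given in the sources used here. Table positions match GENCODE M21 (GRCm38) for 2.19% of genes, so positions are those of GENCODE M21 by Ensembl identifier. The gene lengths listed with the counts are whole gene spans, not exon lengths, so counting over whole genes is possible and was not tested. Genes kept by filterByExpr (minimum count 10, minimum total 15) were normalized by TMM and tested with edgeR 4.0.16 (quasi-likelihood, no covariates, R 4.3.3), with Benjamini-Hochberg adjustment and thresholds of 0.05 and 0.58. Alternatives were DESeq2 1.42.0, limma-voom 3.58.1, other normalizations and filters, a replicate block, no fold threshold and each sample left out.

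In simulated counts of 13379 genes with 200 changed 4-fold, edgeR recovered 96% with 5.42% of its calls false, and DESeq2 96% with 13.9% false. The changed genes were drawn at random over all levels, and no simulated sample was made to stand apart. These shares therefore do not give the recovery for genes near 1 CPM in the real samples. At 24863611 to 31713704 counts per sample, counting error is large for genes near 1 CPM. Whether each sample was 1 mouse or a pool is not given in the sources used here, so p values measure the spread between these samples, which may be partly technical. No 2 samples of a group were alike within sampling noise (chi-square per degree of freedom 15.7 to 79.2). Log2 CPM used a prior count of 2, and the interval of a ratio of summed counts is exact (95%).

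The 9 genes and all gene lists were chosen with earlier results of these data known. Named genes were the 9, *Slc16a7*, V segments by symbol, the list genes, and the 10 genes outside the 9 whose centred log2 CPM profile was nearest to the mean profile of the 8 tested, among genes of at least 1 CPM. The lists were immunoglobulin constant, B-cell surface, B-lineage transcription factor, receptor signaling, plasma-cell, progenitor and germinal-center genes, and markers of T, NK, plasmacytoid dendritic, dendritic, macrophage, neutrophil, fibroblast and endothelial, epithelial and red cells. Promoter bases are from RefSeq (GRCm38.p6). A result of 1 listed gene is not reported here.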

Additional observations from a re-analysis of the deposited data

How the results depend on the processing

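Calls depended on the test. Against 0 genes called by edgeR, DESeq2 called 79 with the same filter and 95 without a filter (genes with 1 count or more), edgeR without a filter called 2 (*Gpnmb*, log2 fold change 2.46, and *Egr4*, -1.40), and leaving out each sample gave 0 to 2, the 2 (*Hspa1b* and *Lipg*) being without KO replicate 2; the cause was not tested. Of the 9 B-lineage genes, DESeq2 called 2 and 3 in place of 0, and of the other B-lineage lists 1 without the filter. Of the other-cell markers it called 6 and 8. *Slc16a7* passed by DESeq2, with log2 fold changes of -1.05 and -1.04 (adjusted p = 0.00952 and 0.00862), and over all its alternatives lay between -1.30 and -0.85. With limma-voom, DESeq2 size factors or upper-quartile normalization in edgeR, or no fold threshold, 0 of the 9 genes were called.

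The median log2 fold change of the 8 genes tested was -1.13 to -0.69 with each sample left out and -1.08 to -0.96 otherwise. *Blk*, which passed the filter through the CO samples alone, is among the 8. Genes with KO wholly below CO, an alternative chosen after seeing the data, numbered 5 to 6 with each sample left out, *Pax5* being added without CO replicate 1 or KO replicate 3, while 11.6 to 16.3% of all genes had that pattern. By the replicate block, 0 genes were called, with *Slc16a7* at an adjusted p of 0.330, *Cd79b* at -0.44 and *Ighm* at -0.33. Whether the replicate numbers pair the samples cannot be settled, since the deviations are from means of only 3 samples per group. Deviations of same-numbered samples correlated at 0.216, -0.247 and -0.161, while other pairs ran from -0.212 to 0.292. Depth limits *Fcer2a*, *Blk*, *Ms4a1* and single V segments, which rest on under 50 counts per library. Counts under 50 also occurred for *Cd79a* in every library but CO replicate 3, and for *Igkc* in every KO library. The same held for *Pax5* in KO replicates 1 and 2 and for *Cd79b* in KO replicate 2.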

Other observations

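The genes whose centred profile over the 6 samples was nearest to the mean profile of the 8 tested B-lineage genes included 1 gene of the B-lineage lists, *Irf4*. Among 12417 genes of at least 1 CPM, with a median root-mean-square difference of 0.671, the nearest were *Tmem163* (0.148), *Garin4* (0.176), *Bbc3* (0.191), *Xcl1* (0.207), *Irf4* (0.221), *Lrp3* (0.226), *Clec2i* (0.226), *Cdkn1c* (0.239), *Sorcs2* (0.241) and *Socs1* (0.244). *Bbc3*, which encodes the apoptosis mediator PUMA, was at 40.9 ± 6.96 CPM (SD, n = 3) in CO and 23.3 ± 8.10 in KO. *Xcl1*, a chemokine of NK and T cells, was at 4.68 ± 1.34 and 2.42 ± 0.719 CPM. *Irf4*, a factor of activated B cells and plasma cells that myeloid cells also express, was at 7.38 ± 2.52 and 4.75 ± 2.11 CPM. *Clec2i* shares 33.4% of its span with a gene on the opposite strand, which leaves its counts uncertain. The likeness is over 6 libraries and the profile was set by the samples of the same comparison.

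*Pou2f2*, the octamer factor OCT2 that is active in B cells and macrophages, was at 69.2, 56.8 and 38.6 CPM in CO and 77.1, 18.7 and 79.4 in KO. *Ptprc*, the pan-leukocyte marker CD45, was at 778, 706 and 554 CPM in CO and 917, 431 and 794 in KO. *Cd3e*, a chain of the T-cell receptor complex, was at 2.5, 5.23 and 3.20 CPM in CO and 3.77, 0.675 and 9.72 in KO. All 3 were lowest in KO replicate 2, as *Ighm*, *Cd79b* and *Cd22* were, and were chosen here after their values were seen.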
